A study of Mus musculus with 15 samples.

Results

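Macrophages exposed to IFNγ were set directly against macrophages exposed to LPS, with neither group receiving the other stimulus. The members are the 3 arrays titled IFNg and the 2 arrays titled Ctrl_LPS, 5 of the 15 arrays in the series, and every gene with a detected probe. Of 10900 gene symbols on the deposited table, 7125 were detected on every array of at least 1 of these groups and 7669 passed the detection filter over all 6 groups and were tested. The series took bone marrow-derived macrophages of specific pathogen-free C57Bl/6 mice, without any genetic change named in the labels, and measured RNA on Illumina bead arrays. The IFNγ group received IFNγ for 18 h and no LPS. The Ctrl_LPS group, called LPS below, received no interferon and then ultrapure LPS of Escherichia coli for 6 h. The Ctrl group of 3 arrays received neither and is used below as the resting level. The other groups are IFNβ, and either interferon followed by LPS. They enter the normalization, the detection filter, the choice of probe for each gene and the shared estimate of the spread. The LPS dose is recorded with a doubtful unit and is not printed, and no dose of IFNγ is given in the sources used here. The states thus differ in agent and in time of exposure (18 h against 6 h). Nothing states that replicate arrays stand for separate cultures or mice, so a p-value reflects the spread among arrays, which may be technical.

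IFNγ, the type II interferon, is a product of T and NK cells. Its receptor signals through the kinases Jak1 and Jak2 to factors that bind GAS elements and induce Irf1, Ciita and a second wave of genes for antigen presentation and cell-autonomous defence. LPS, which coats Gram-negative bacteria, is sensed by Tlr4 with Cd14 and Md-2. One arm of that receptor, through MyD88, activates NF-kB and MAP kinases and induces inflammatory cytokines. The other arm, through Trif, activates Irf3 and induces IFNβ, which then acts back on the same cells through ISRE elements. The comparison asks which genes belong to one activated state and which to the other.

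The 3 IFNγ arrays lay on one slide with the resting controls, and the 2 LPS arrays lay on the other slide, which holds all arrays with LPS. Slide and LPS cannot be told apart in the comparison. Median raw intensity was 175.5 to 240.9 on the IFNγ arrays and 182.4 to 199.1 on the LPS arrays, and 10267 to 10618 and 9913 to 9963 of 15978 probes were detected. Across genes, which are not independent replicates, arrays correlated at 0.9796 to 0.9926 within IFNγ, at 0.9859 within LPS and at 0.8704 to 0.882 between them. IFNγ array 1 stood somewhat apart from its companions on principal component 3 (23.29 against 6.00 and 8.37), and without it 3668 genes were called where all arrays gave 3764. The macrophage genes Adgre1 (F4/80), Lyz2, Ctsb, Gpnmb, Tyrobp and Trem2 were detected on all 8 arrays of the 3 groups. They are part of 23 macrophage identity genes tested, and not all were so: Ctsl was detected on no IFNγ array. Of the 23 genes 1 rose and 9 fell against rest with IFNγ, and 6 rose and 7 fell with LPS. Over all genes tested 11.5% rose and 14.5% fell with IFNγ, and 21.2% rose and 34% fell with LPS.

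The states differed at 3764 genes (limma, adjusted p under 0.05). Of the genes tested 2189 (28.5%) were higher with IFNγ and 1575 (20.5%) higher with LPS. The median of all log2 differences, IFNγ minus LPS, was 0.09, their median size was 0.51 and the median SE was 0.206. For 4993 genes (65.1%) every array of one group lay above every array of the other. Differences of over 4-fold were reached by 250 called genes (3.26%) on the IFNγ side and by 273 (3.56%) on the LPS side. Detection itself was split for some genes: 391 were detected on all IFNγ arrays and on no LPS array, 169 on all LPS arrays and on no IFNγ array, and 5945 on all 5. Some named genes were detected on only part of the lower group: Rnase6, Havcr2, Flt1, Tnfsf13b, Cdc42ep3, Cdc20, Aurka and Klf2 on 1 of 2 LPS arrays, Il1b, Gpr84, Cfb, Ptges, H2-T24 and the Eef1a1 probe on 2 of 3 IFNγ arrays, and Nos2, Ptgs2, Tnfsf9, Marco and Fscn1 on 1 of 3. Their folds rest in part on signals near background. The share of calls on the IFNγ side was 58.2%, and it was 48.5% with median scaling and 51.9% with cyclic loess in place of quantile normalization, so no excess of one direction holds under all 3 scalings.

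**Figure D1:**
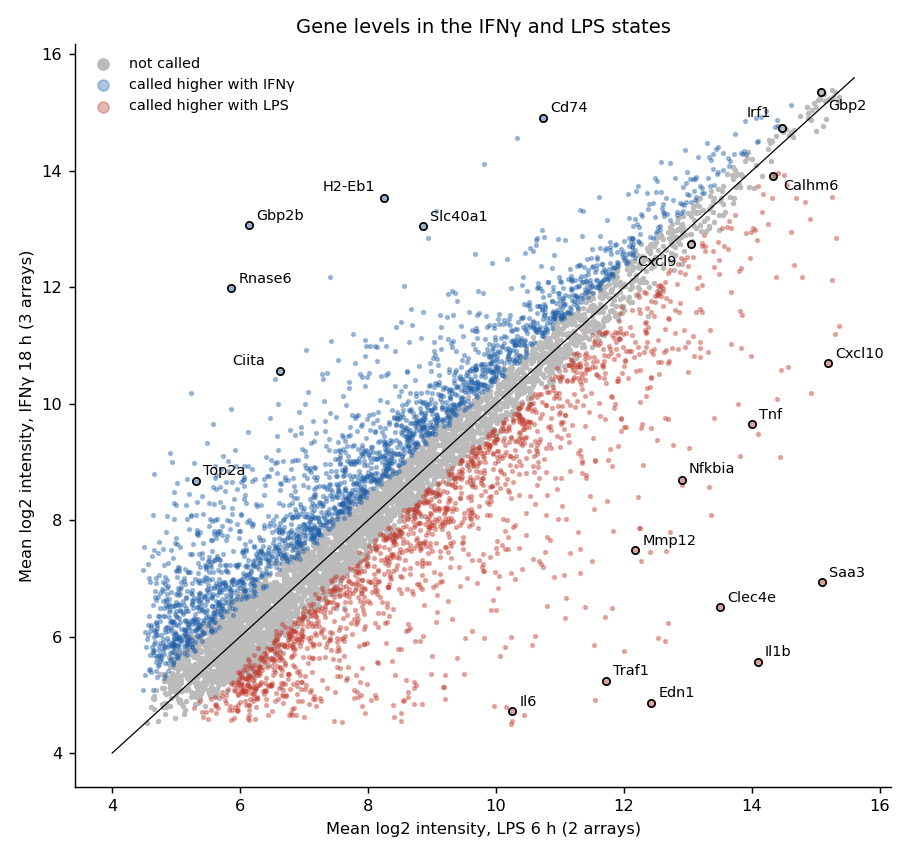
Mean log2 intensity of each tested gene with IFNγ (vertical axis, 3 arrays) against LPS (horizontal axis, 2 arrays). Each point is a gene, blue where called higher with IFNγ (2189), red where called higher with LPS (1575) and grey otherwise, and the line marks equal levels. Gbp2b, Rnase6 and H2-Eb1 lie far above the line, Il1b, Saa3 and Edn1 far below it, and Gbp2, Irf1 and Cxcl9 lie close to it.

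The resting means, which do not enter the difference between the states, placed each difference. The resting arrays do enter the normalization, the detection filter, the choice of probe and the shared estimate of the spread. Among the 250 genes over 4-fold higher with IFNγ, the resting mean lay nearer to the IFNγ mean for 195 (78.0%) and nearer to the LPS mean for 55 (22%). For 95 of them the resting level was even above the IFNγ level. Among the 273 genes over 4-fold higher with LPS, the resting mean was nearer to IFNγ for 248 (90.8%), with 151 below the IFNγ mean, and nearer to LPS for 25 (9.16%). Among all called genes the shares nearer to IFNγ had the other order, with 84.1% of the 2189 higher with IFNγ and 80.1% of the 1575 higher with LPS. The resting arrays share the slide of the IFNγ arrays, so nearness to IFNγ and a shared slide cannot be told apart.

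**Figure D2:**
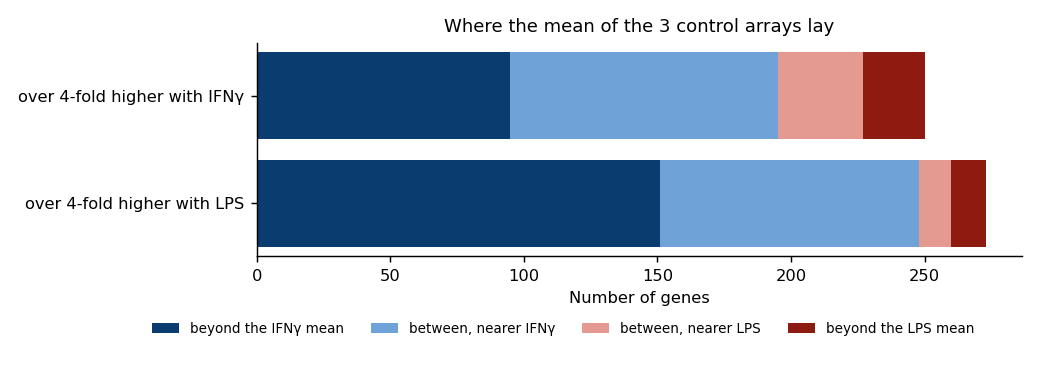
Number of called genes over 4-fold higher with IFNγ (250) or with LPS (273), divided by where the mean of the 3 resting arrays lay. Dark blue marks genes whose resting level was beyond the IFNγ mean (95 and 151), light blue between the means and nearer to IFNγ (100 and 97), light red between and nearer to LPS (32 and 12), dark red beyond the LPS mean (23 and 13).

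Of the lists, MHC class II had the largest median difference toward IFNγ. These molecules show peptides from the endosome to helper T cells. Of 14 class II genes tested 11 were higher with IFNγ and none with LPS, against 28.5% and 20.5% of all genes, and their median difference was 2.62 log2 units (2.10 with undetected genes at their bound, and 0.09 over all genes). H2-Eb1, a beta chain, stood at 13.73, 13.50 and 13.36 log2 units on the IFNγ arrays and at 8.22 and 8.27 on the LPS arrays. The resting arrays lay lower still, at 7.53, 6.99 and 7.14, so the 3 groups did not overlap. H2-Eb1 was 39.0-fold higher with IFNγ than with LPS (log2 5.28, SE 0.253, limma adjusted p = 1.3e-09). H2-Ab1, the beta chain of the other class II molecule, stood at 14.72, 14.49 and 14.50 with IFNγ and at 10.36 and 10.30 with LPS, and its partner H2-Aa at 13.33, 13.36 and 13.26 and at 8.81 and 9.30. Both lay far above LPS on every IFNγ array, with differences of 4.24 and 4.26 log2 units.

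The genes that load and assemble class II followed the chains. Cd74, the invariant chain that guides class II molecules to the endosome, stood at 15.07, 14.86 and 14.81 with IFNγ and at 10.56 and 10.91 with LPS, 18.1-fold apart. H2-DMa, part of the exchange factor that loads peptide, stood at 14.18, 14.13 and 14.02 and at 9.90 and 9.74, 19.6-fold apart. Ciita, the coactivator that switches on class II genes, stood at 10.75, 10.50 and 10.45 with IFNγ and at 6.45 and 6.78 with LPS, and was detected on no resting array (4.73, 4.79 and 4.56). It was 15.5-fold higher with IFNγ (log2 3.95, SE 0.29, limma adjusted p = 8.55e-08). LPS also raised the class II chains above rest, though by less: against the resting arrays H2-Ab1 rose by 6.12 log2 units with IFNγ and by 1.88 with LPS, H2-Aa by 5.52 and 1.26, and H2-Eb1 by 6.31 and 1.02. These comparisons share the resting arrays. Over the list, 12 of 14 rose and 1 fell with IFNγ, and 7 rose and 3 fell with LPS. Rfxap, a subunit of the RFX factor at class II promoters, and Ctss, the protease that trims the invariant chain, did not pass the test between the states (0.30 and 0.41 log2 units).

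The promoters of H2-Eb1 and H2-Aa are shown because class II promoters share a Y box, the CCAAT-type element bound by NF-Y beside the RFX site. The sequences are the 250 bases before the gene start in RefSeq on GRCm38.p6, read 5′ to 3′ along the gene's own strand, with the motif GATTGG in capitals on either strand (CCAATC where it lies on the other one).
H2-Eb1 (chr17:34305617-34305866, plus strand): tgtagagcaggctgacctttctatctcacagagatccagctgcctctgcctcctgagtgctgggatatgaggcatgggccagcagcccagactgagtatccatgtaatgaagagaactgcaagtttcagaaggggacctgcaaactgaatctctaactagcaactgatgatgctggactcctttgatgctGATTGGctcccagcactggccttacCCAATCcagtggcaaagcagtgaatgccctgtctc
H2-Aa (chr17:34287824-34288073, minus strand): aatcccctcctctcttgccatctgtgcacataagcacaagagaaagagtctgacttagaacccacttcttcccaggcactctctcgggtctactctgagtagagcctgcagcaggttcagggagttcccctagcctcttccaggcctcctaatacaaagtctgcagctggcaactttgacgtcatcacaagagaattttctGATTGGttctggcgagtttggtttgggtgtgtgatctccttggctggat
H2-Aa held 1 match, 49 bases before the start. H2-Eb1 held 2, at 60 bases on the gene's strand and at 35 bases on the other. Among promoter windows of the class II list 7 of 12 (58.3%) held the motif, where 14.6% of all 32851 windows and 18.6% of the 8161 windows of tested genes did. The motif is not particular to class II: it was found in 17 of 30 windows (56.7%) of the cell cycle list, in 25.3% of the windows of genes over 4-fold higher with IFNγ, and in 14.2% of those over 4-fold higher with LPS. A match is a run of letters and not a measured binding site.

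The interferon-inducible GTPases, which attack the vacuoles of intracellular microbes or block viruses, were high in both states. All 16 tested rose against rest in each state (background: 11.5% of genes rose and 14.5% fell with IFNγ, 21.2% rose and 34% fell with LPS). Rises made up 44.2% of the calls against rest with IFNγ and 38.4% with LPS, and 56% and 49.3% with cyclic loess. Between the states 3 were higher with IFNγ and 7 with LPS, with a median of -0.16. Gbp2b, also called Gbp1, had the largest called difference on the IFNγ side. It stood at 12.98, 13.20 and 13.03 log2 units with IFNγ and at 5.88 and 6.40 with LPS, and was detected on no resting array (4.44, 4.89 and 4.51). It was 122-fold higher with IFNγ (log2 6.93, SE 0.249, limma adjusted p = 1.24e-10). The Mx proteins, which trap the nucleocapsids of RNA viruses, lay on the other side. Mx2 stood at 6.22, 6.74 and 6.53 with IFNγ and at 11.85 and 11.78 with LPS, and Mx1 at 8.74, 8.65 and 8.40 and at 13.06 and 12.76. Mx2 was 39.9-fold and Mx1 19.9-fold higher with LPS. Gbp5, which promotes inflammasome assembly and the lysis of bacteria, was 3.89-fold higher with LPS (log2 -1.96, adjusted p = 2.03e-05). Members of the family are close in sequence, so probes may also bind the RNA of relatives.

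Gbp2 stood at 15.37, 15.35 and 15.32 with IFNγ and at 15.09 and 15.09 with LPS, levels close to the highest on the arrays (15.4), and differed by 0.26 log2 units (95% interval -0.02 to 0.54, limma adjusted p = 0.109). Its 3 probes did not give the same direction: the others gave -1.04 (limma adjusted p = 0.000498) and 1.07 (limma adjusted p = 0.00125), adjusted over all detected probes. The promoters of these nearby genes on chromosome 3 are set side by side because Gbp2b parted the states and the probe used for Gbp2 did not. Capitals mark the core of the ISRE, an element of interferon-responsive promoters that Irf factors bind (GAAA and GAAA with 2 bases between them, searched on both strands and here lying on the other one).
Gbp2b (chr3:142594597-142594846, plus strand): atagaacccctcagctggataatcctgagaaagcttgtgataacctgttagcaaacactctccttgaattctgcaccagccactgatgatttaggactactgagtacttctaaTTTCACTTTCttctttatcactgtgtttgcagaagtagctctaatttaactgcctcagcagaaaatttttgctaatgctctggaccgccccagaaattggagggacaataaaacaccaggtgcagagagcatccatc
Gbp2 (chr3:142620413-142620662, plus strand): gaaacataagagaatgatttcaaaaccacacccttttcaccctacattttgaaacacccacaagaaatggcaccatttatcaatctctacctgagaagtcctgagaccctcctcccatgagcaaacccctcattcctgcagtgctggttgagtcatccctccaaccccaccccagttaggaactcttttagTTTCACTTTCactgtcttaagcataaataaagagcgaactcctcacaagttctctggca
The match lay 137 bases before the start of Gbp2b and 59 bases before the start of Gbp2. Of 11 promoter windows of the GTPase list 9 (81.8%) held the ISRE core and 5 (45.5%) the GAS motif (TTC and GAA with 3 bases between them), where 2.98% and 7.02% of all windows did. The ISRE core was found in 3.35% of windows of genes over 4-fold higher with IFNγ and in 6.38% of those over 4-fold higher with LPS, and the GAS motif in 8.92% and 7.80%.

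Outside these families the largest difference on the IFNγ side was that of Rnase6, an antimicrobial ribonuclease. It stood at 12.29, 11.73 and 11.92 log2 units with IFNγ and at 5.54 and 6.18 with LPS, with rest at 6.94, 6.96 and 6.41. Rnase6 was 69.5-fold higher with IFNγ (log2 6.12, SE 0.323, limma adjusted p = 3.19e-09). Against rest it rose by 5.21 with IFNγ and fell by 0.91 with LPS. Several further genes also rose with IFNγ while they fell with LPS. Lbh, a transcription cofactor, stood at 12.69, 11.84 and 11.99 with IFNγ and at 6.99 and 7.82 with LPS around a resting level of 9.29, 9.41 and 9.58. The other probe of Lbh gave 3.47 against 4.76 log2 units. Enc1, an actin-binding protein of the Kelch family, stood at 10.25, 10.14 and 10.17 with IFNγ and was detected on no LPS array, so that IFNγ was at least 22.1-fold higher. Such a bound takes for each LPS array the dimmest signal still detected there, unless the gene was brighter, and sets the IFNγ mean against it. Itgb7, an integrin beta chain of leukocyte homing, was at least 8.36-fold higher, and Havcr2 (Tim-3), an inhibitory receptor, 14.4-fold higher with IFNγ (log2 3.85). The resting level of Lbh, Enc1, Itgb7 and Havcr2 lay between both states.

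A second kind of gene was near or below its resting level with IFNγ and far below it with LPS. Slc40a1 (ferroportin), the iron exporter of macrophages, stood at 12.92, 13.10 and 13.13 log2 units with IFNγ, at 8.91 and 8.81 with LPS and at 14.21, 13.81 and 13.74 at rest. It was 18.3-fold higher with IFNγ than with LPS (log2 4.19, adjusted p = 1.94e-09), with falls of 0.87 and 5.06 from rest. Cnr2, a cannabinoid receptor of leukocytes, stood at 8.96, 9.37 and 9.14 with IFNγ and at 9.20, 8.88 and 8.87 at rest and was detected on no LPS array, at least 10.8-fold apart. The IFNγ and resting values of Cnr2 overlapped, and those of LPS lay apart from both. Cdc42ep3, an effector of the GTPase Cdc42, was 16.7-fold higher with IFNγ, and its difference from rest was 0.15 with IFNγ (adjusted p = 0.653) and -3.91 with LPS. Rasgrp3, an exchange factor for Ras and Rap, and Rab3il1, an exchange factor for Rab proteins, were detected on no LPS array and were at least 9.65-fold and 7.92-fold higher with IFNγ. The other probe of Rab3il1 gave a smaller difference (1.69 against 3.54 log2 units). Zfp36l1, which promotes the decay of AU-rich mRNAs, differed by 3.90 log2 units, with -0.16 against rest for IFNγ and a fall by 4.07 with LPS.

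Another kind rose with IFNγ and did not differ from rest with LPS by the test. Tnfsf13b (Baff), the survival factor of B cells, stood at 9.86, 9.92 and 9.94 with IFNγ and at 6.24 and 5.47 with LPS, with rest at 5.30, 6.00 and 5.62. LPS and rest overlapped, and IFNγ was 16.5-fold above LPS (log2 4.05, adjusted p = 1.47e-07, and 4.86 by another probe). Sectm1a, a secreted and membrane protein that costimulates T cells, was at least 9.52-fold higher with IFNγ than with LPS, where it was not detected. Flt1, a receptor of Vegf, was 9.05-fold higher with IFNγ (log2 3.18). Irf8, a lineage factor of macrophages that IFNγ is known to induce, stood at 13.25, 12.35 and 12.58 with IFNγ, at 10.45 and 10.81 with LPS and at 9.62, 9.93 and 9.81 at rest, a 4.28-fold difference (log2 2.10, adjusted p = 3.85e-05). Irf8 rose in each state and so lies outside this kind.

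**Figure D3:**
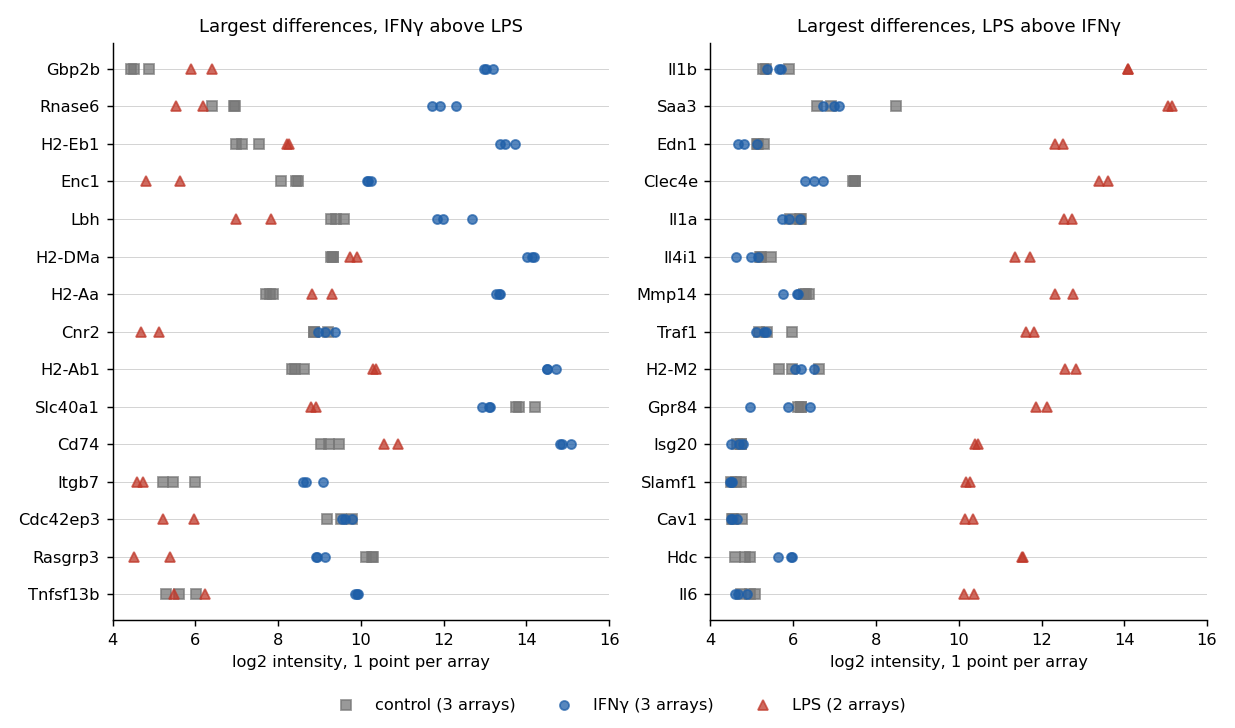
Log2 intensity on each resting (grey squares), IFNγ (blue circles) and LPS (red triangles) array for the 15 genes with the largest called difference in each direction, ordered by that difference. On the left the resting level varies from near LPS (Gbp2b, Tnfsf13b) to above IFNγ (Slc40a1, Rasgrp3), while on the right both rest and IFNγ lie far below LPS.

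The LPS side was led by inflammatory cytokines and acute phase genes whose level with IFNγ lay close to rest. Il1b, the precursor of interleukin 1 beta, stood at 14.09 and 14.09 log2 units with LPS, at 5.36, 5.65 and 5.70 with IFNγ and at 5.33, 5.28 and 5.91 at rest. It was 367-fold higher with LPS than with IFNγ (log2 -8.52, SE 0.398, limma adjusted p = 1.17e-09), and was detected on 2 of the 3 IFNγ arrays. Resting and IFNγ values overlapped, and their difference was 0.06 (adjusted p = 0.922). Saa3, an acute phase apolipoprotein made by macrophages, stood at 15.15 and 15.05 with LPS and at 7.10, 6.72 and 6.99 with IFNγ, 287-fold apart (log2 -8.16). One of its resting values lay higher than the others (6.57, 6.91 and 8.47), still far below LPS. Il1a, the membrane-linked alarmin of the same family as Il1b, stood at 12.74 and 12.54 with LPS and at 5.91, 5.72 and 6.16 with IFNγ, 105-fold apart.

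Edn1, the vasoconstrictor endothelin 1, stood at 12.52 and 12.34 log2 units with LPS and was detected on no IFNγ array, at least 117-fold apart (log2 -7.57, SE 0.593, limma adjusted p = 1.65e-07). Il6, a cytokine of fever and the acute phase, stood at 10.13 and 10.37 with LPS and was likewise detected on no IFNγ or resting array, with a bound of 25.9-fold. Il4i1, an oxidase of aromatic amino acids, and Traf1, an adaptor of Tnf receptors, had bounds of 63.2-fold and 71.5-fold. These genes had no measured level with IFNγ above background. Slamf1, a receptor of activated leukocytes, Cav1, the coat protein of caveolae, and Isg20, an antiviral exonuclease, were also detected on no IFNγ array, with bounds of 25.5-fold, 25.7-fold and 29.3-fold. Another probe of Slamf1 gave -4.16 log2 units against -5.73. Hspa1a, a heat-induced Hsp70 chaperone, was at least 21.4-fold higher with LPS.

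Further genes were detected in both states but much higher with LPS. Clec4e (Mincle), a lectin that senses mycobacterial glycolipids, stood at 13.60 and 13.39 with LPS, at 6.29, 6.50 and 6.72 with IFNγ and at 7.48, 7.5 and 7.44 at rest. It fell by 0.97 log2 units with IFNγ and rose by 6.03 with LPS, and was 128-fold higher with LPS than with IFNγ (log2 -6.99, adjusted p = 2.19e-12, and -7.60 by another probe). Mmp14, a membrane metalloproteinase, was 94.0-fold higher, H2-M2, a nonclassical class I gene, 87.8-fold higher, and Gpr84, a receptor for medium-chain fatty acids, 76.0-fold higher with LPS. Hdc, the enzyme that makes histamine, stood at 11.55 and 11.52 with LPS and at 5.63, 5.98 and 5.96 with IFNγ, 51.1-fold apart. Unlike the cytokines above, Hdc also rose with IFNγ, where all arrays detected it and no resting array did.

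Over the list of inflammatory cytokines 20 of 23 genes tested were higher with LPS and 2 with IFNγ, and the median difference was -2.61 (-2.41 with undetected genes at their bound). Against rest 6 rose and 3 fell with IFNγ, and 18 rose and 1 fell with LPS. Tnf, the early cytokine of macrophage activation, stood at 14 and 13.99 with LPS, at 9.95, 9.47 and 9.52 with IFNγ and at 7.54, 8.27 and 8.34 at rest. It was 20.4-fold higher with LPS than with IFNγ (log2 -4.35, adjusted p = 3.09e-09), although IFNγ raised it by 1.60 over rest. Il10, which limits macrophage activation, was 2.80-fold higher with LPS and rose in both states (by 1.85 and 3.34). Il12a, a subunit of interleukin 12, was detected with LPS only among the 3 groups and was at least 2.73-fold higher. Il33, an alarmin, gave 0.07 (adjusted p = 0.872) at levels near the detection limit.

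NF-kB genes lay almost all on the LPS side. Of 25 tested subunits, inhibitors and feedback genes 23 were higher with LPS and none with IFNγ, with a median of -2.14 (-1.86 at bounds). Against rest 24 rose and none fell with LPS, where 6 rose and 1 fell with IFNγ. Nfkbia, the inhibitor IkB alpha that NF-kB itself induces, stood at 12.86 and 12.95 log2 units with LPS, at 8.6, 8.57 and 8.89 with IFNγ and at 8.88, 8.47 and 8.51 at rest. IFNγ and rest overlapped (0.07, adjusted p = 0.792), and LPS was 18.6-fold above IFNγ (log2 -4.21, adjusted p = 5.23e-10). Nfkbiz, a nuclear cofactor needed for Il6, and Nfkb2, the precursor of p52, differed by -4.91 and -4.32. Nfkbid and Cyld, a nuclear inhibitor and a deubiquitinase of the pathway, did not pass the test (-0.41 and -0.37, adjusted p = 0.0937 and 0.0521).

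The promoters of Il6 and Nfkbia are shown as genes of this side with a kappaB element. Capitals mark the kappaB motif (GGGA and TCC with 3 bases between them) on either strand and, in Il6, also one GATTGG motif read on the other strand (CCAATC).
Il6 (chr5:30012864-30013113, plus strand): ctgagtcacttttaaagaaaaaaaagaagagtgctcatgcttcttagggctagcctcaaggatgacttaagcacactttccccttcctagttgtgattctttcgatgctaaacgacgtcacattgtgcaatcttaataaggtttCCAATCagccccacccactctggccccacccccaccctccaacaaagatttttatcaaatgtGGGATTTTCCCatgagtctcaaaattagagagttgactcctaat
Nfkbia (chr12:55492648-55492897, minus strand): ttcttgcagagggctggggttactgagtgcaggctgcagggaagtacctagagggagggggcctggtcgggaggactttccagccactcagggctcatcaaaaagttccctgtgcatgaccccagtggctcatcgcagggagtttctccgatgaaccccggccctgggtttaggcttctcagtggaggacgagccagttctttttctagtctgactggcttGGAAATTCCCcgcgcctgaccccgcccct
The kappaB matches of Il6 on both strands overlap by all but their end bases and begin 44 and 43 bases before the start, and the match of Nfkbia begins 29 bases before it. The same window of Il1b and of Traf1, also searched, held no kappaB match. The motif was found in 4 of 23 windows of the cytokine list (17.4%) and in 4 of 30 of the NF-kB list (13.3%), and also in 3 of 30 of the cell cycle list (10.0%), beside 3.86% of all windows and 4.68% of those of tested genes. Genes over 4-fold higher with LPS held it in 6.74% of windows and those over 4-fold higher with IFNγ in 6.32%.

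Receptors and adaptors of the LPS pathway were divided. Of 27 Toll-like receptor pathway genes 14 were higher with LPS and 4 with IFNγ (median -0.85, or -0.71 at bounds). Cd14, the coreceptor that hands LPS to Tlr4, moved in opposite directions. It stood at 9.93, 10.04 and 10.01 with IFNγ, at 13.85 and 13.73 with LPS and at 12.27, 12.12 and 12.24 at rest, with no overlap of the 3 groups. It fell by 2.22 with IFNγ, rose by 1.58 with LPS, and was 13.9-fold higher with LPS than with IFNγ (adjusted p = 1.31e-10). Tlr2, the receptor of bacterial lipopeptides, was 7.76-fold higher with LPS, and its difference from rest with IFNγ was -0.30 (adjusted p = 0.502). Tlr3, the receptor of double-stranded RNA, was detected on no IFNγ array and was at least 4.88-fold higher with LPS. Irak3, an inhibitor of the pathway, differed by -2.78 log2 units.

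Chemokines followed LPS with exceptions. Of 18 tested 13 were higher with LPS and 1 with IFNγ (median -1.65), and that 1 call was not made with median scaling or cyclic loess, nor without IFNγ array 1, LPS array 1 or LPS array 2. Cxcl10, a ligand of Cxcr3 on activated T cells, stood at 15.22 and 15.15 log2 units with LPS, at 10.83, 10.77 and 10.48 with IFNγ and at 6.28, 6.24 and 5.08 at rest. It was raised in both states and was 22.5-fold higher with LPS (log2 -4.49, SE 0.491, adjusted p = 4.28e-06). Ccl5, a chemoattractant of T cells and monocytes, stood at 15.33 and 15.26 and at 11.22, 10.95 and 11.41, 17.2-fold apart, and rose in both states as well. Cxcl1 and Cxcl2, which draw neutrophils, were detected on no IFNγ and no resting array, and were at least 8.94-fold and 24.1-fold higher with LPS. Ccl3, which draws monocytes, was on opposite sides of rest: it stood at 11.22, 11.36 and 11.40 with IFNγ, at 15.41 and 15.33 with LPS and at 13.02, 13.32 and 13.27 at rest. Cxcl9, another Cxcr3 ligand, and Ccl8 did not pass the test between the states (-0.32 and 0.29). Values of Cxcl10, Ccl5 and Ccl3 with LPS lay within 1 log2 unit of the highest level on the arrays, and the effect of that ceiling on their differences was not tested.

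Genes known as targets of type I interferon were higher with LPS than with IFNγ almost throughout the list. Of 43 tested 39 were higher with LPS and none with IFNγ, with a median of -2.07. Both states raised many of them over rest (32 of 43 with IFNγ, 41 of 43 with LPS). Isg15, the ubiquitin-like modifier, stood at 14.45 and 14.46 log2 units with LPS, at 10.52, 10.56 and 10.68 with IFNγ and at 7.79, 7.88 and 6.97 at rest, and was 14.7-fold higher with LPS (log2 -3.87, adjusted p = 7.8e-09). The IFNγ values formed a level of their own between rest and LPS. Oasl1, of the oligoadenylate synthetase family, and Ifi205, a p200 protein that senses DNA, differed by -5.37 and -5.19, with -5.25 and -3.91 by the other probes of Oasl1 and -3.70 by that of Ifi205. Ifih1 (Mda5), the sensor of long double-stranded RNA, was detected on no IFNγ array and was at least 12.4-fold higher with LPS. Samhd1, which depletes the nucleotides that viruses need, and Ifitm3, which blocks viral entry, were among the 4 that did not pass the test by the probe used (-0.27 and -0.35), and the other probe of Samhd1 passed it at -1.41 (limma adjusted p = 0.000806). Of 42 promoter windows of this list 12 (28.6%) held the ISRE core.

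Within interferon signalling 12 of 23 genes were higher with LPS and 2 with IFNγ (median -0.61). Irf7, the amplifier of type I interferon, stood at 10.90 and 11.21 with LPS and at 7.05, 6.63 and 7.48 with IFNγ, 16.1-fold apart. Jak2, the kinase of the IFNγ receptor, was itself 10.3-fold higher with LPS, and Usp18, which removes Isg15 and blocks the IFNα/β receptor, 8.98-fold higher (-3.17, and -3.39 and -3.92 by its other probes, in log2 units). The feedback inhibitors parted: Socs3, which acts on Il6-type receptors, stood at 13.95 and 13.68 with LPS and at 8.61, 9.35 and 9.35 with IFNγ, 26.2-fold apart. Socs1, which blocks Jak kinases at interferon receptors, stood at 7.75 and 7.44 and at 7.80, 7.79 and 8.54, and its difference of 0.45 did not pass the test (interval -0.21 to 1.11, adjusted p = 0.24). Irf1 stood at 14.67, 14.78 and 14.75 with IFNγ and at 14.55 and 14.40 with LPS, with a difference of 0.26 (interval -0.03 to 0.54, adjusted p = 0.122). These levels lay near the highest on the arrays (15.4), and the effect of that ceiling on the difference was not tested. Il12b, Il23a, Acod1 and Csf1r are not analysed here, and Csf3 did not pass the detection filter.

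MHC class I genes were called in both directions between the states. Of 21 class I presentation genes 4 were higher with IFNγ and 5 with LPS (2 and 8 with median scaling). Their median was -0.09 and turned to 0.02 without LPS array 1. The shares over all genes tested were 28.5% and 20.5%. Against rest 17 of the 21 rose with IFNγ and 18 with LPS, where 11.5% and 21.2% of all genes rose. Tap1, a peptide transporter, and Psmb10, an immunoproteasome subunit, did not pass the test by the probes used (-0.53 and -0.51), and the other probe of Psmb10 passed it at -0.47 (limma adjusted p = 0.0312). Pdia3, a disulfide isomerase of the loading complex, was higher with IFNγ by 1.32, and the nonclassical H2-T10 and H2-T24 were higher with LPS (differences of -1.14 and -1.31). Of 21 costimulation and adhesion genes 14 were higher with LPS and 4 with IFNγ (median -1.25). Cd40, the receptor by which T cells license macrophages, stood at 14.84 and 14.99 with LPS and at 9.87, 10.31 and 10.40 with IFNγ, 26.5-fold apart (log2 -4.73, and -3.52 to -5.17 by its 3 other probes). Tnfsf9 (4-1BB ligand) was 13.6-fold higher with LPS. Cd274 (PD-L1), the inhibitory ligand, rose in both states by 3.36 and 4.14 log2 units and was 1.72-fold higher with LPS (adjusted p = 0.000526).

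Some genes stood lower with IFNγ than with LPS and also lower than at rest. Mmp12, the macrophage elastase, stood at 7.56, 7.38 and 7.52 log2 units with IFNγ, at 12.10 and 12.26 with LPS and at 12.90, 13.19 and 12.86 at rest. It fell by 5.49 with IFNγ, its difference from rest with LPS was -0.80 (adjusted p = 0.391), and it was 25.9-fold higher with LPS than with IFNγ (log2 -4.69, SE 0.759, adjusted p = 0.000159). Clec4d (MCL), the lectin partner of Clec4e, had the same order: 11.07, 10.94 and 10.84 with IFNγ, 13.87 and 13.80 with LPS and 13.90, 13.88 and 13.87 at rest. Fcrls, an Fc receptor-like gene, fell by 2.74 with IFNγ against -0.35 with LPS. The cathepsins Ctsk and Ctsl, the gelatinase Mmp9 and the MAP kinase phosphatase Dusp4 also fell with IFNγ, and Ctsk fell by 2.59. Ctsl, Mmp9 and Dusp4 were detected on all resting arrays and on no IFNγ array, and LPS was at least 2.10-fold, 3.99-fold and 5.38-fold higher. The other probe of Dusp4 gave -1.64 against -2.80 log2 units. Il1rn, the antagonist of interleukin 1, fell by 1.85 with IFNγ and rose by 2.54 with LPS, with another probe giving a smaller difference between the states (-2.79 against -4.39). Tfrc, the transferrin receptor, fell by 2.92 with IFNγ and fell by 1.57 with LPS.

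Sterol synthesis behaved likewise. Of 21 genes 13 were higher with LPS and 2 with IFNγ (median -0.79), and against rest none rose and 13 fell with IFNγ, where 3 rose and 4 fell with LPS. Hmgcs1, which makes the precursor of mevalonate, stood at 11.71, 11.98 and 12.08 with IFNγ, at 13.72 and 13.62 with LPS and at 13.59, 13.48 and 13.62 at rest. LPS and rest lay together and IFNγ apart. Cyp51 and Hsd17b7, later enzymes of cholesterol synthesis, fell by 1.75 and 1.70 with IFNγ, and Idi1, an isomerase of the pathway, was detected on no IFNγ array and at least 3.47-fold higher with LPS. Sqle, the squalene epoxidase, did not pass the test by the probe used (-0.59) and passed it by the other (-1.05, limma adjusted p = 0.0342). In the group of LXR, efflux and fatty acid genes 7 were higher with IFNγ and 6 with LPS out of 20 (median -0.07, 0.003 without LPS array 2). The shares over all genes were 28.5% and 20.5%. Nr1h3 (LXR alpha), the oxysterol receptor, was 11.7-fold higher with LPS, whereas Pparg, a lipid receptor, was 5.11-fold and the desaturase Fads1 4.13-fold higher with IFNγ. The other probes of Nr1h3 and Pparg gave smaller differences (-2.59 against -3.55 and 1.20 against 2.35 log2 units).

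The TCA cycle, glycolysis, respiratory chain and ribosomal protein lists, unlike sterol synthesis, had more genes called higher with IFNγ than with LPS. So did all genes tested (28.5% against 20.5%), and that excess did not hold under every scaling. The itaconate gene Acod1 was not among those tested on the TCA cycle list. Of the 24 that were, 12 were higher with IFNγ and 1 with LPS (median 0.58), and of 22 glycolysis genes 11 and 2 (median 0.58, or 0.55 at bounds). Against rest 4 TCA cycle genes rose and 2 fell with IFNγ, and 2 rose and 15 fell with LPS. For glycolysis 11 rose and 2 fell with IFNγ, and 7 rose and 9 fell with LPS. Of all genes 21.2% rose and 34% fell with LPS. Idh1, the cytosolic isocitrate dehydrogenase, stood at 11.52, 11.29 and 11.23 with IFNγ, at 9.99 and 9.96 with LPS and at 12.39, 12.09 and 12.38 at rest, so it fell in both states and further with LPS. Pkm, the pyruvate kinase, was 2.88-fold and Vegfa, a growth factor that Hif1a induces, 10.7-fold higher with IFNγ (Vegfa 3.42, and 2.76 by another probe, in log2 units). Slc2a6, a hexose transporter of lysosomes, lay on the LPS side at 14.46 and 14.31 with LPS and 9.65, 10.36 and 10.22 with IFNγ, 19.9-fold apart, as did Eno2, an enolase, and Dld, a subunit shared by mitochondrial dehydrogenases (-2.21 and -1.11). Of 31 respiratory chain genes 18 were higher with IFNγ and none with LPS (median 0.44), but 4 with median scaling and 11 with cyclic loess. Against rest 5 of them rose and 1 fell with IFNγ, and 4 rose and 11 fell with LPS. Ndufs7, a subunit of complex I, differed by 0.95, and Cox7b, of complex IV, did not pass the test (-0.49). Of 33 cytosolic ribosomal protein genes 14 were higher with IFNγ and none with LPS. Against rest none of them rose or fell with IFNγ, and none rose and 20 fell with LPS. Their median of 0.31 between the states turned to -0.07 with median scaling, where 4 were higher with IFNγ and 1 with LPS. The median of all genes itself moved from 0.09 to -0.03 between these scalings.

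Genes of effector chemistry were split by enzyme. Their counts below stand beside 28.5% of all genes higher with IFNγ and 20.5% higher with LPS. Nos2, the inducible nitric oxide synthase, stood at 9.49 and 9.52 log2 units with LPS and at 4.89, 5.43 and 5.74 with IFNγ, where 1 of 3 arrays detected it, and rest was below detection. It was 17.7-fold higher with LPS (adjusted p = 8.66e-08), as was Gch1, which makes its cofactor (12.6-fold), and Slc7a2, an arginine transporter (8.07-fold). Over the 12 nitric oxide and arginine genes 2 were higher with IFNγ and 4 with LPS (median -0.16). Tryptophan breakdown leaned the other way, with 3 of 4 genes higher with IFNγ and none with LPS (median 0.98; 2 of 4 with median scaling). Kynu, the kynureninase, stood at 8.69, 8.62 and 8.98 with IFNγ and at 6.33 and 6.55 with LPS, 4.99-fold apart, and Wars, the tryptophanyl-tRNA synthetase, was 2.27-fold higher, though another of its probes gave 0.52 (adjusted p = 0.0905). Ido1, which opens the pathway, passed the test but was detected on no array of either state, so no fold is given. For prostaglandins and leukotrienes 5 of 12 were higher with IFNγ and 4 with LPS (median 0.28). Tbxas1 (thromboxane synthase) and Pla2g7, which degrades platelet-activating factor, were 4.96-fold and 6.25-fold higher with IFNγ, and Ptges and Ptgs2, which make prostaglandin E2, 6.95-fold and 5.51-fold higher with LPS. In oxidant defence 4 of 19 were higher with IFNγ and 8 with LPS (median -0.21, 0.08 over the 16 detected on all arrays), with Sod2, the mitochondrial dismutase, 6.10-fold higher with LPS.

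Cell cycle genes lay near rest with IFNγ and below it with LPS. Of 31 tested 26 were higher with IFNγ and 1 with LPS, with a median of 2.05 (1.96 at bounds). Against rest 27 fell and 1 rose with LPS, while 3 fell and 2 rose with IFNγ. Top2a, the topoisomerase of dividing cells, stood at 8.95, 8.58 and 8.50 with IFNγ and at 8, 8.33 and 8.30 at rest and was detected on no LPS array, at least 7.75-fold apart. Cdc20, the activator of the anaphase-promoting complex, stood at 8.61, 9.45 and 8.99 with IFNγ, at 5.33 and 6.29 with LPS and at 9.13, 9.28 and 9.09 at rest. IFNγ and rest overlapped for Cdc20, and LPS was lower on both arrays (log2 3.20, SE 0.287, limma adjusted p = 6e-07), with 1.99 to 2.66 log2 units by its 3 other probes. Uhrf1, which maintains DNA methylation, and Aurka, a mitotic kinase, were 9.82-fold and 7.37-fold higher with IFNγ. Mcm6, of the replicative helicase, and Cdt1, its loader, did not pass the test (0.81 and 0.56). In these bulk samples, fewer dividing cells and less RNA per dividing cell cannot be told apart.

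Stress, arrest and signalling regulators were mixed, as were all genes tested (28.5% higher with IFNγ and 20.5% with LPS). Of 20 p53, arrest and survival genes 9 were higher with IFNγ and 7 with LPS (median 0.03, turning to -0.03 with median scaling and -0.10 with cyclic loess). Trp53inp1 and Sesn1, targets of p53, were 9.29-fold and 6.01-fold higher with IFNγ, with 1.77 against 2.59 log2 units by the other probe of Sesn1, whereas Pim1, a survival kinase, was 5.66-fold higher with LPS. Bcl2 was at least 3.08-fold higher with IFNγ by the probe used, and of its other probes 1 gave 0.48 (adjusted p = 0.382), against 2.39, 1.97 and 1.39. Of 17 MAP kinase phosphatases and Gadd45 genes 10 were higher with LPS and 6 with IFNγ (median -0.78, or -0.67 at bounds). Dusp2 and Gadd45b were 29.5-fold and 20.6-fold higher with LPS (another Dusp2 probe gave -4.30 against -4.88 log2 units). Dusp6, which acts on Erk, was 8.77-fold higher with IFNγ by the probe used, while another gave 0.51 (adjusted p = 0.085). Of 26 AP-1, ATF, CREB and early response genes 11 were higher with LPS and 9 with IFNγ (median -0.35). Batf, a partner of Jun and Irf factors, was 16.2-fold higher with LPS, and Klf2, a brake on inflammatory genes, 5.79-fold higher with IFNγ.

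Other immune lists held members on both sides, as did all genes tested (28.5% higher with IFNγ and 20.5% with LPS). Of 21 inflammasome and lytic death genes 12 were higher with LPS and 3 with IFNγ (median -0.69), among them Casp4 (caspase 11, the intracellular LPS sensor) at 3.77-fold (-1.91 log2 units, and -2.73 and -2.54 by other probes) and Mefv (pyrin) at a bound of 9.75-fold. Of 15 matrix genes 10 were higher with LPS and 3 with IFNγ (median -2.09), led by Mmp14, Mmp12 and the collagenase Mmp13 (-4.61, with -1.60 by another probe). Of 13 acute phase and antimicrobial genes 6 were higher with LPS and none with IFNγ (median -0.56), including Lcn2, which binds bacterial siderophores (21.6-fold). Iron handling gave 4 and 7 of 17 for IFNγ and LPS (median -0.05, which changed sign without IFNγ array 2 or LPS array 1). Complement gave 5 and 3 of 11, with C1qa, of the first component, 2.33-fold higher with IFNγ and factor B (Cfb) 21.0-fold higher with LPS. Its median of -0.20 became 0.14 without IFNγ array 1 and 0.18 without LPS array 1, and 0.78 over the 5 genes detected on all arrays. The Fc receptor list, which also holds the kinase Syk and the lectin Clec4e, gave 3 and 4 of 9 (median -0.39). Syk and Clec4e were among the 4 higher with LPS. Fcgrt, the receptor that recycles IgG, was 4.56-fold higher with IFNγ, and Fcgr1, the high-affinity IgG receptor that IFNγ is known to raise, did not pass the test (-0.39, interval -0.77 to -0.0046). Chemokine and chemoattractant receptors gave 7 and 5 of 17 (median -0.16, 0.04 without LPS array 2). Fpr2, a receptor of formyl peptides, was 27.3-fold higher with LPS, and Ptger2, a prostaglandin E2 receptor, at least 3.53-fold higher with IFNγ (other probe 1.16 against 3.05 log2 units).

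Markers of alternative activation gave 6 of 13 higher with IFNγ and 4 with LPS (median 0.18, -0.16 without LPS array 1). The galactose lectins Mgl2 and Clec10a were 5.40-fold and 7.63-fold higher with IFNγ. Scavenger receptors and lectins gave 4 and 5 of 17 (median -0.14, 0.06 over genes detected on all arrays), with Marco, a scavenger receptor for bacteria, 16.3-fold higher with LPS. Anti-inflammatory factors gave 9 and 13 of 29 (median -0.39), with Tsc22d3, a glucocorticoid-induced gene, 7.28-fold higher with IFNγ (2.86 log2 units, and 1.88 by its other probe). The unfolded protein and heat shock list gave 11 and 3 of 20 (median 0.56, or 0.48 at bounds), with the chaperone Pdia4 and Herpud1, of protein degradation at the endoplasmic reticulum, 2.51-fold and 2.97-fold higher with IFNγ. Serine synthesis and Atf4 targets gave 6 and 3 of 16 (median 0.22, -0.27 over the 7 genes detected on all arrays), with Psat1, of serine synthesis, 2.61-fold higher with IFNγ. The lysosome list gave 9 and 3 of 31, and its median of 0.13 turned to -0.06 with median scaling, where 5 and 8 were called. All genes tested gave 28.5% higher with IFNγ and 20.5% with LPS. The lysosome share on the IFNγ side lay near that of all genes. Ppt1, a lysosomal thioesterase, was 6.21-fold and cathepsin H (Ctsh) 2.98-fold higher with IFNγ.

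**Figure D4:**
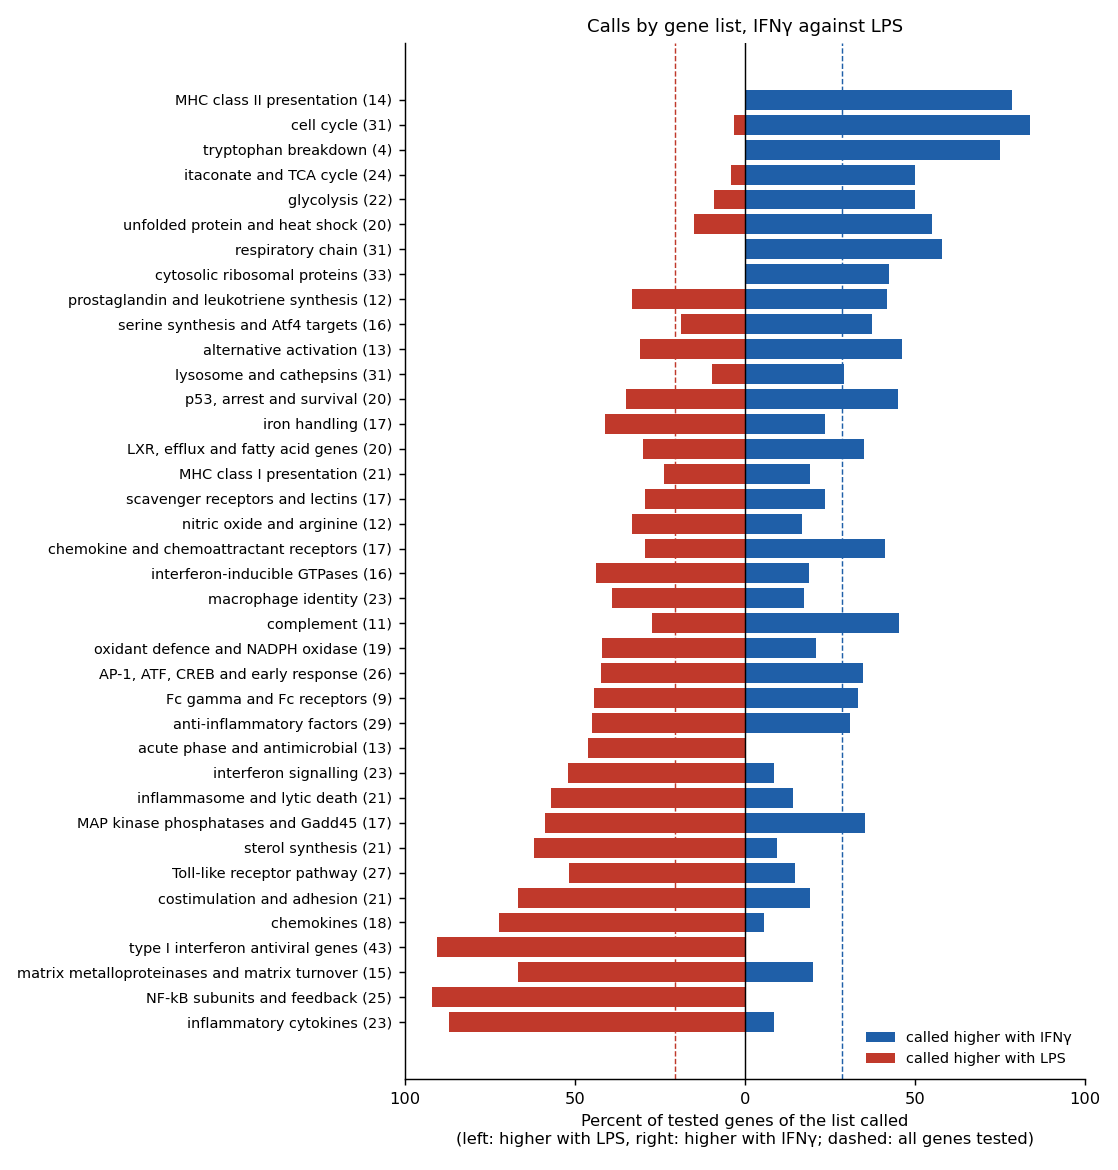
Share of the tested genes of each list called higher with IFNγ (blue, to the right) or with LPS (red, to the left), in percent, ordered by median difference, with the number tested in brackets and dashed lines at the shares of all genes (28.5% and 20.5%). MHC class II and cell cycle genes lie furthest toward IFNγ, and inflammatory cytokines, NF-kB genes and type I interferon antiviral genes toward LPS.

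Markers of identity and of other cells were set beside these results and beside all genes tested (28.5% higher with IFNγ and 20.5% with LPS). Of 23 macrophage identity genes 4 were higher with IFNγ and 9 with LPS (median -0.17, 0.02 over the 18 detected on all arrays), and with median scaling 1 and 12 were called. Neutrophil markers gave 3 of 9 higher with LPS (Lcn2, Mmp9 and Csf3r) and none with IFNγ, with a summed linear intensity of 2919 to 3738 with IFNγ and 6446 to 6735 with LPS. Ngp and Camp, granule genes that define neutrophils, did not pass the test (0.35 and -0.56). Dendritic cell markers gave 3 of 7 each way. Cd1d1 and Batf3 were higher with IFNγ (1.94 and 1.63), and Clec9a was detected with IFNγ alone among the 3 groups (at least 1.47-fold). Fscn1 was 10.1-fold higher with LPS, and Siglech and Bst2 were also called higher with LPS. Bst2 is on the type I interferon list as well. Ccr7 was detected on no array of either state. Their summed intensity was 2572 to 3245 with IFNγ and 4834 to 5893 with LPS. T and NK cell markers gave Cd28 higher with IFNγ and Prf1 higher with LPS, 1 each of 2 tested, and Prf1 was not called without IFNγ array 1, IFNγ array 2 or LPS array 1 (adjusted p up to 0.433). B cell markers gave Blnk of 3 higher with LPS, erythroid and megakaryocytic markers Car2 of 4, mast cell markers Hdc alone, and fibroblast markers none of 2. The part of other cells in the results was not tested. Reference genes gave 2 of 9 each way (median 0.10, -0.03 with median scaling, -0.18 without LPS array 1): Hprt and Tubb5 were higher with IFNγ (1.47, or 0.67 and 1.14 by other Hprt probes, and 0.80, the latter not called without IFNγ array 2 or 3, without LPS array 2 or with median scaling), and Ywhaz and the Eef1a1 probe higher with LPS (-0.56 and -1.96), while Actb did not pass the test by the probe used (-0.31) and passed it by the other (-0.55, limma adjusted p = 0.00397).

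A last set of genes was shared by the states: called against rest in both comparisons, in the same direction, and not called between the states, with a difference within 0.5 log2 units. Both comparisons use the same resting arrays, and a difference that misses the threshold does not show equality, so intervals are given. Cxcl9 stood at 12.61, 12.77 and 12.83 log2 units with IFNγ and at 12.98 and 13.13 with LPS, and was detected on no resting array (4.74, 5.30 and 4.67). Its difference between the states was -0.32, with a 95% interval of -0.73 to 0.10. Calhm6, a subunit of calcium homeostasis modulator channels, stood at 14.16, 13.74 and 13.86 and at 14.15 and 14.50 from rest at 7.67, 7.55 and 7.64, a difference of -0.41 (interval -0.80 to -0.01). Its unadjusted interval lies below 0 while its adjusted p was 0.0803. Batf2, an AP-1 type partner of Irf1, stood at 10.88, 10.72 and 10.96 and at 10.88 and 11.07, and their ranges overlapped (difference -0.12, interval -0.50 to 0.26). Igtp (Irgm3), a regulator of the immunity-related GTPases, differed by 0.28 (-0.08 to 0.64), Gbp7 by -0.19 (-0.83 to 0.44) and Gbp10 by 0.33 (-0.30 to 0.95). Fgl2, a prothrombinase and immunoregulator, rose by 5.34 with IFNγ and 4.99 with LPS, and differed by 0.34 (-0.18 to 0.87).

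The shared genes below rest in both states were of other kinds. Lhfpl2, a tetraspan membrane protein, stood at 8.78, 8.86 and 9.11 with IFNγ, at 9.22 and 8.93 with LPS and at 12.28, 12.24 and 12.20 at rest. It fell by 3.32 with IFNγ and fell by 3.16 with LPS, with a difference between the states of -0.16 (interval -0.48 to 0.16). Il7r, a chain of the receptor for interleukin 7 and Tslp, fell by 1.72 and 2.01, and Cdkn2b, an inhibitor of Cdk4 and Cdk6, by 1.70 and 2. P2ry1, a receptor for ADP, stood at 7.83, 8.10 and 7.66 at rest and was detected on 1 of 3 IFNγ arrays and on no LPS array. The intervals of Gpr176, an orphan receptor, and of Cdk20, a cell cycle kinase, were -0.74 to 0.05 and -0.71 to 0.99.

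**Figure D5:**
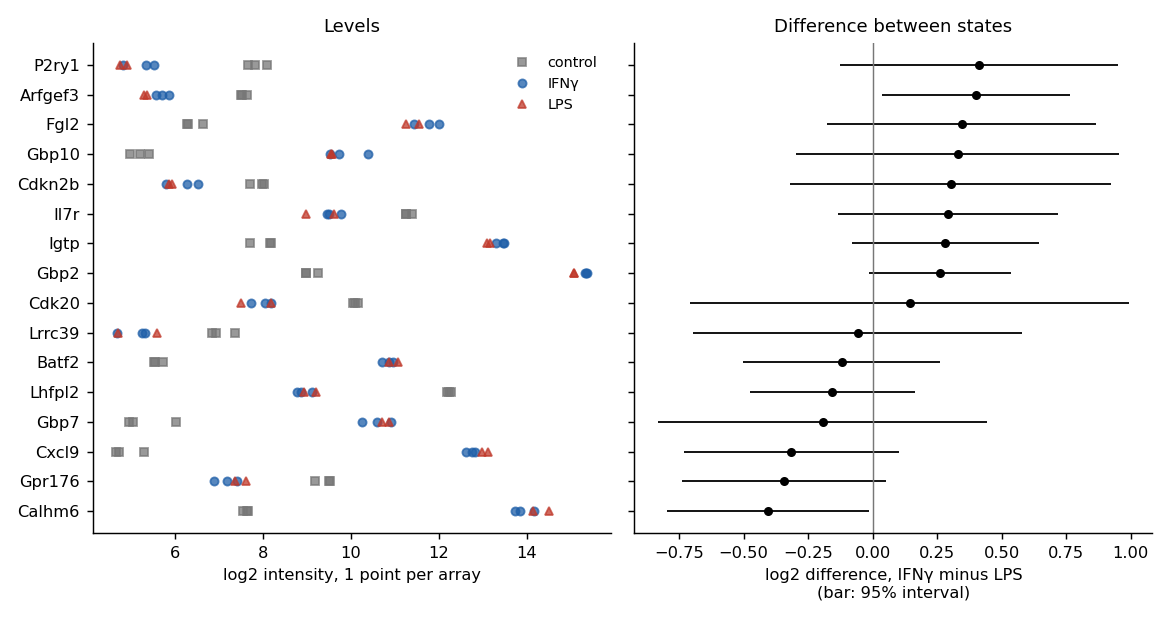
Left: log2 intensity on each resting, IFNγ and LPS array for 16 genes moved the same way from rest in both states and not called between them. Right: their difference, IFNγ minus LPS, in log2 units, with its 95% interval before adjustment for multiple tests. The circles and triangles lie close together and away from the squares, and all but 2 intervals, those of Calhm6 and Arfgef3, cross 0.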

How the data were processed

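RNA of bone marrow-derived macrophages was labelled with biotin and measured on Illumina bead arrays, per the labels' protocols. Per the file headers, the deposited table holds a mean intensity for each of 15978 probes on each of 15 arrays, not normalized, and a detection p-value for each probe and array. The authors also deposited normalized log2 values of the same arrays, with the method, like the scanner software, not given in the sources used here. Groups came from the array titles.

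Intensities were background-corrected with the normexp method of limma 3.58.1 in R 4.3.3, using negative controls inferred from the detection p-values, with an offset of 16, then quantile-normalized and put on the log2 scale. Probes entered the tests where some group, of 6, had a detection p below 0.01 on all its arrays (11117 probes). Of all probes 14994 carried 1 gene symbol and 984 none, and 5 symbols were updated. Each gene is represented by its brightest probe, so levels of different genes are not compared. One limma model with a mean for each of 6 groups was fitted to all 15 arrays, with moderated tests, and p-values were Benjamini-Hochberg adjusted over 7669 genes. Calls required an adjusted p below 0.05. The scripts were tested on simulated data. The number of arrays limits precision, and arrays give no read depth. The p-values of second probes of a gene were adjusted over all detected probes.

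The members and the 46 gene lists (1084 genes, 750 tested) were chosen with earlier results of these data known. Named genes were, in each direction, the 15 called genes with the largest difference and no overlap of arrays and up to 6 with a bound. To these were added 36 readout genes, up to 4 called and 2 uncalled members of each list, and 8 genes raised and 8 lowered in both states. Lists are described by counts and medians, without a test. Promoters came from RefSeq. The alternatives varied background correction, offset, normalization, detection filter, probe choice, variance model, replicate block, arrays fitted and arrays left out, and used the authors' log2 values. Leaving out the first IFNγ-then-LPS array and array weights were added after seeing the data.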

Additional observations from a re-analysis of the deposited data

How the results depend on the processing

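Between IFNγ and LPS 3764 genes were called, and 2817 (genes detected on all 15 arrays, so fewer tested) to 5318 (all detected probes, each tested) under 17 other settings, with 2910 to 3668 when 1 array of either group was left out. Array weights gave 4175 and leaving out the first IFNγ-then-LPS array 3894. The replicate block gave 3500. Same-numbered IFNγ and LPS arrays deviated from their group means with correlations of -0.26 and -0.213. The 2 LPS arrays always deviate from their mean by equal and opposite amounts, so these values are not separate checks. They cannot settle whether the numbers pair the arrays. Against rest, IFNγ gave 2000 calls, 1559 to 1889 with 1 array left out, 1847 with the replicate block and 3064 with array weights, and the cause of the last was not tested. LPS gave 4233 calls, 3453 to 3862 with 1 array left out and 3989 with the replicate block. Of 179 called among the 273 named genes 173 were called the same way in every alternative that tested them and 0 reversed. Many named genes were chosen for a large called difference in the same data, so these counts do not extend to all 3764 calls. Atp5g1, Calr, Ido1, Prf1, Spr and Tubb5 were not called in at least 1 alternative. Without LPS array 1 the calls of Calr, Ido1, Prf1 and Spr were lost. Of the uncalled named genes 52 were called in at least 1. The authors' log2 values correlated with those used at 0.9997 or more. A slide that coincides with LPS, 2 arrays in the LPS group and signals near background or near the highest level limit what can be resolved.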
